A study of Mus musculus with 8 samples.

Results

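Nupr1 and 6 further genes, S100a16, Tgfb2, Pdlim3, Cnn3, Dapl1 and Crip2, were followed through single-cell RNA libraries and chromatin accessibility peaks of the mouse retina. The 7 genes, of 43628 gene IDs in the count tables, were selected on their reads in rod-rich wells, which were higher in Spata7 knockout (KO) than in wild-type (WT) retinas, so that difference is given below as a description and is not tested. All 7 were found in all 6 RNA libraries and had enough reads for every fit. The RNA libraries came from WT mice of the C57BL6/J strain and from Spata7 mutant mice, labelled with the same strain, at 1, 3 and 6 months of age, with 1 library per genotype and age. Open chromatin was mapped by ATAC in 1 library of WT mice aged 7 months and 1 of KO mice aged 6 months. All animals were labelled male and were kept on a standard diet, and no treatment was given to either genotype. The labels do not say how many animals entered a library. The 3 ages therefore stand in for repeats of the genotype comparison.

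Spata7 encodes a protein of the photoreceptor connecting cilium, the narrow bridge between the inner and outer segment, and its loss leads to photoreceptor degeneration. Nupr1 is a small chromatin-associated regulator that is induced by cell stress and is a known target of the transcription factor ATF4. Tgfb2 is a secreted ligand of the TGF-β family. S100a16 binds calcium through EF hands. Cnn3, a calponin, binds actin, and Pdlim3 is a PDZ and LIM domain protein that binds alpha-actinin. Crip2 is a small protein built of LIM domains, and Dapl1 is related to death-associated protein. Müller glia, which span the retina and support its neurons, are known to respond to photoreceptor loss, and they are a second place where such genes can be expressed.

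Wells were assigned to classes by markers that include none of the 7 genes. A Müller well had at least 15000 CPM (counts scaled to the total reads of the well or of the summed wells) of Apoe, a lipid carrier made by Müller glia. Bipolar, cone and ganglion wells had at least 5000 CPM of their markers, and rod-rich wells were the remaining wells with at least 41241 CPM of 20 rod markers. Of 3746 wells, 1938 were rod-rich, 324 Müller, 602 bipolar and 617 cone, 29 were ganglion cell wells, 174 had no class and the rest fell in smaller classes. Rod-rich wells numbered 405, 129 and 221 in WT and 428, 261 and 494 in KO at 1, 3 and 6 months, and Müller wells 79, 9 and 12 in WT and 63, 103 and 58 in KO. Their median summed rod markers were 120989 CPM in rod-rich wells and 33836 CPM in Müller wells, where the 16 Müller markers had a median sum of 60391 CPM. Wells with an Apoe level within 20% of the cut numbered 131, and 102 wells lay as near to the rod cut. Wells of the cone class held a median of 65034 CPM of rod markers and are given only beside the rod-rich wells.

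Library depth ranged from 12356586 to 182310499 reads, and the median reads per rod-rich well were 135031, 39612 and 45886 for WT at 1, 3 and 6 months, and 25056.5, 46952 and 106548 for KO. Spata7 itself had 20.2 to 32.2 CPM in the WT libraries and 1.38 to 4.07 CPM in the KO libraries. Y-linked genes had 0 reads, and Xist 20091, in the library labelled WT 1 month, which goes against its male label, and the other 5 libraries had Y-linked reads. Rod-rich wells of KO also held more Müller transcripts: the median summed level of the 16 Müller markers was 428, 2549 and 2549 CPM in WT and 10275, 13334 and 7316 CPM in KO. Of these markers, 14 were higher in every KO library than in every WT library, with mean log2 ratios from 0.29 to 3.33 and a median of 2.41. The part of these transcripts in the levels below was not tested as a cause, and their values are given beside each result. Well positions shared between libraries ranged from 0 to 136 over the 15 pairs, so well names do not identify cells across libraries. WT and KO shared 112 positions at 1 month, where the product of their shares gives 109.7, and 0 at both 3 and 6 months, where it gives 33.2 and 58.6. Between 3 and 6 months, the WT libraries also shared 0 (product 14.5) and the KO libraries 85 (134.7). WT 3 months shared 61 with KO 6 months (36.5), and WT 6 months shared 87 with KO 3 months (53.3). The labels give neither a chip nor a batch, and with 1 library each, genotype and library cannot be told apart.

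Promoter windows of Nupr1 and S100a16 are shown because KO peaks covered more of them and because both genes passed the test of genotype in bipolar wells, which for Nupr1 repeats a difference already known from these data. They are the 250 bases before each RefSeq start site (GRCm38.p6), 5′ to 3′ on the strand of the gene, with the motif found in Nupr1 in capitals. S100a16 has a pair of start sites, numbered here from the outer one. The windows lie at chr7:126625471-126625720 on the minus strand for Nupr1, and at chr3:90537004-90537253 and chr3:90540896-90541145 on the plus strand for S100a16.
Nupr1: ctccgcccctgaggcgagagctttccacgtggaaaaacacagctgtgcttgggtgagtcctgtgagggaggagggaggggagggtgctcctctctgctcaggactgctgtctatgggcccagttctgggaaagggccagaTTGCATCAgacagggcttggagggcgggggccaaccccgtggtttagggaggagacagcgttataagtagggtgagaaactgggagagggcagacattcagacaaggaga
S100a16 window 1: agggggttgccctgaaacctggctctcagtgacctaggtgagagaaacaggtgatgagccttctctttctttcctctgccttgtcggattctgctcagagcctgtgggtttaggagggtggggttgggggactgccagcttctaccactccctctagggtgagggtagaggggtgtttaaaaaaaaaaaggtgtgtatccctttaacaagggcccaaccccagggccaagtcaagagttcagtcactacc
S100a16 window 2: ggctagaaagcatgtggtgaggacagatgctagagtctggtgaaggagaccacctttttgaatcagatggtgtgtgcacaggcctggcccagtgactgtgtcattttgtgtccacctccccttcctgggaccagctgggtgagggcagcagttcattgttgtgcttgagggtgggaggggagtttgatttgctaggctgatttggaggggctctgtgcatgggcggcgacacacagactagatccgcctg
The capitals in the Nupr1 window mark TGATGNAA on the opposite strand, the composite element read by ATF4 with CHOP. It lies 110 bases before the start site and occurs in 3.45% of 32851 such windows. TGACTCA, the element read by AP-1 and present in 4.46% of windows, was found in none of the genes' windows. The element TAATCC, read by the photoreceptor factor CRX and present in 6.25% of windows, was found in the window of Tgfb2, and that of Pdlim3 held TGATGNAA and the TEAD element CATTCC (12.6% of windows), the latter at 2 positions, 1 of them overlapping TGATGNAA. The windows of S100a16, Cnn3, Dapl1 and Crip2 held none of the 4 motifs. Both strands were searched. A match is a run of letters and not a measured binding site.

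Nupr1 (ENSMUSG00000030717, chromosome 7, 126623246 to 126625470) showed, after Pdlim3, the largest mean difference between genotypes of the 7 genes in rod-rich wells. It had 2.98, 16.0 and 42.4 CPM in WT at 1, 3 and 6 months and 284, 283 and 99.1 CPM in KO. All KO libraries were above all WT libraries, the WT level was highest at 6 months and the KO level lowest there. The KO level was 95.3, 17.6 and 2.34 times the WT level at the 3 ages. On the log2(CPM + 1) scale the mean KO minus WT difference was 3.81 ± 2.49 (SD over 3 ages). Few WT wells gave these reads: 1 well held 53.5% of the 202 Nupr1 reads of WT 1 month, and 1 well held 82.2% of the 101 reads of WT 3 months. In KO the top well held 7.69 to 12.9% of 3906 to 6318 reads.

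Tgfb2, the only ligand among the 7 genes (ENSMUSG00000039239, chromosome 1, 186622787 to 186709697), had 12.8, 67.8 and 2.77 CPM in WT rod-rich wells and 88.1, 149 and 79.1 CPM in KO. The groups did not overlap, but WT 3 months was close to KO 6 months. Its mean log2 difference was 2.74 ± 1.64 over the ages. The calcium-binding S100a16 (ENSMUSG00000074457, chromosome 3, 90537254 to 90543151) had 15.6, 8.74 and 89.0 CPM in WT and 230.1, 264 and 124 CPM in KO. Its lowest KO and highest WT values both came from 6 months, where the log2 difference was 0.47 against 3.80 and 4.76 at 1 and 3 months. The mean was 3.01 ± 2.25.

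The genes of the actin cytoskeleton showed the same order. Cnn3 (ENSMUSG00000053931, chromosome 3, 121426541 to 121458205) had 10.9, 67.4 and 31.3 CPM in WT rod-rich wells and 221, 287 and 165 CPM in KO, a mean log2 difference of 2.89 ± 1.17. Pdlim3 (ENSMUSG00000031636, chromosome 8, 45885487 to 45919635) had 0.383, 0 and 1.38 CPM in WT and 102, 62.8 and 44.6 CPM in KO. The count of 0 in WT 3 months allows up to 0.477 CPM. Its mean log2 difference, 5.49 ± 1.07, rests on WT levels near 0 and depends on the added count of 1.

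Crip2 (ENSMUSG00000006356, chromosome 12, 113140236 to 113145506) had 31.3, 26.7 and 12.1 CPM in WT rod-rich wells and 213, 188 and 84.2 CPM in KO. It was lower at each later age in both genotypes, and its mean log2 difference was 2.73 ± 0.04, the smallest spread over ages of the 7 genes. Dapl1 (ENSMUSG00000026989, chromosome 2, 59484653 to 59505020) had 14.9, 28.4 and 4.80 CPM in WT and 128, 146 and 98.8 CPM in KO, a mean log2 difference of 3.15 ± 0.90. For all 7 genes every KO library was above every WT library in rod-rich wells. Of all 14146 genes tested there, 16.2% had that order, and since this contrast chose the genes nothing is read from their count. At a false discovery rate of 0.05, edgeR's quasi-likelihood test called 0.0% of genes in this contrast, although 1250 had an unadjusted p under 0.05, while DESeq2 called 775 genes (5.48%, with 4.46% higher).

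**Figure D1:**
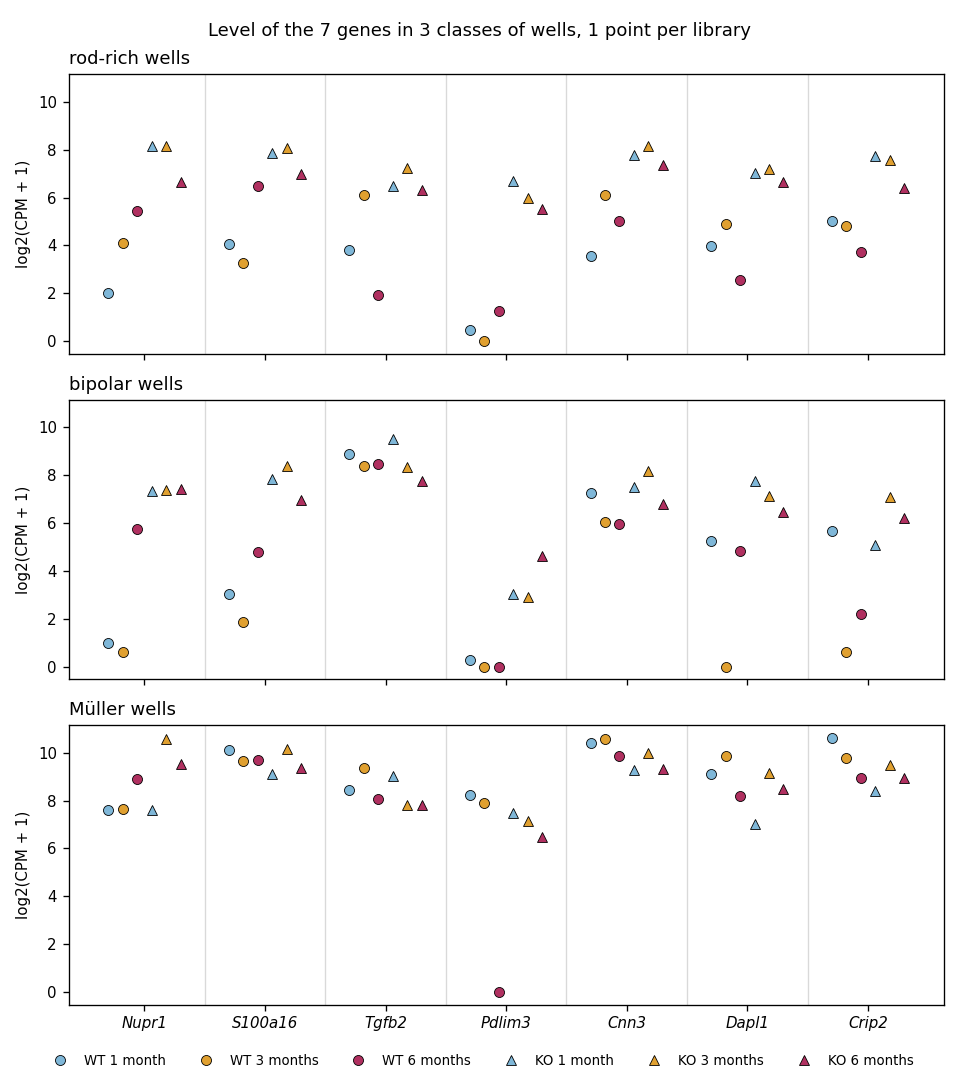
Level of each gene, as log2(CPM + 1) on the vertical axis, in rod-rich, bipolar and Müller wells (top to bottom), with 1 point per library (circles WT, triangles KO, coloured by age) and no error bars, since there is 1 library per genotype and age. In the top panel each gene's KO points lie above its WT points, as for Nupr1 at 99.1 to 284 against 2.98 to 42.4 CPM, while in the bottom panel the genotypes overlap for all 7 genes.

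The shares of wells with a read gave the same order, with Crip2 as an exception given below. Nupr1 was detected in 9.38% (exact 95% binomial interval 6.73 to 12.7), 6.98% (3.24 to 12.8) and 8.14% (4.90 to 12.6) of WT rod-rich wells. In KO it was detected in 22.7% (18.8 to 26.9), 24.9% (19.8 to 30.6) and 20.2% (16.8 to 24.1). These intervals cover counting error only. Rod-rich wells of WT 1 month had the highest median depth, so wells were also thinned to 5000 reads each, which left 417 of the 428 KO wells of 1 month. Thinned shares of Nupr1 were then 0.494, 2.33 and 4.07% (WT) against 17.5, 18.4 and 10.1% (KO). Cnn3 had thinned shares of 2.72, 8.53 and 5.88% in WT and 21.1, 29.9 and 23.5% in KO. The thinned KO shares of the other 5 genes ranged from 4.80 to 21.5%, and their WT shares from 0 to 5.43%.

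Between 1.36 and 27.9% of WT rod-rich wells held a read of S100a16, Tgfb2, Dapl1 or Crip2 before thinning, and Crip2 was the exception to the order: 27.9% of wells in the library labelled WT 1 month exceeded its KO shares of 18.9, 24.1 and 23.1%. That library had the deepest wells, and at 5000 reads its Crip2 share was 1.98% against 14.4, 18.01 and 13.2% in KO. Reads in WT were concentrated in few wells for every gene. The top well held at least 19.2% of a gene's reads in each WT library, and all 17 reads of Pdlim3 in WT 6 months, against 3.57 to 27.5% in KO libraries.

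The level in Müller wells was measured next, as the level of a possible source of these transcripts. Nupr1 had 193, 199.9 and 483 CPM in WT Müller wells and 195, 1541 and 731 CPM in KO, so the genotypes overlapped and the highest value was KO 3 months. S100a16 had 1100.1, 799.7 and 833 CPM in WT and 548, 1128 and 659 CPM in KO. Cnn3 had 1352, 1509 and 927 CPM in WT and 614, 1010.5 and 632 CPM in KO. Crip2 had 1566, 870.0 and 498 CPM in WT and 338, 723 and 492 CPM in KO. These 4 genes were thus present in Müller wells of both genotypes, where WT 3 months rests on 9 wells.

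Tgfb2 had 348, 651 and 269.6 CPM in WT Müller wells and 522, 224 and 227 CPM in KO. Dapl1 had 547, 926 and 294 CPM in WT and 130.4, 576 and 361 CPM in KO. Pdlim3 had 303, 237 and 0 CPM in WT and 179, 142 and 88.6 CPM in KO, where the 0 came from 12 wells and allows up to 1.997 CPM. Detection in Müller wells was wide for Cnn3, in 66.7 to 88.6% of WT and 47.6 to 79.3% of KO wells, and narrower for Nupr1, in 22.2 to 41.7% of WT and 23.8 to 53.4% of KO wells.

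Müller and rod-rich wells were compared within libraries, over the 5 libraries with at least 10 wells of each. The rod-rich values that chose the genes, low in WT and high in KO, are one arm of this comparison, so for the 7 genes it is a description and no test is given. All 7 were fitted higher in Müller wells. The log2 difference was 3.06 for Cnn3 (SE 0.75), 3.04 for Crip2 (SE 0.71), 2.91 for Tgfb2 (SE 0.80), 2.77 for Dapl1 (SE 0.82), 2.76 for Nupr1 (SE 0.74), 2.74 for S100a16 (SE 0.57) and 1.32 for Pdlim3 (SE 1.15). Over all genes edgeR called 1.31% of 15353, 0.632% as higher in Müller wells, and 10 of the 16 Müller markers were among the latter, while DESeq2 called 15.2% (7.41% higher). Without the library labelled WT 1 month the difference was 2.34 for Cnn3 and 2.16 for S100a16. The sizes depended on the setting for the other genes too. Over 16 settings Pdlim3 ranged from 0.31 to 2.49, Nupr1 from 1.63 to 3.01 and Crip2 from 1.67 to 3.55.

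Within the KO libraries alone, where the choice of genes favours a high rod-rich level, the fitted differences were smaller. S100a16 was higher in KO Müller wells by 1.86 on the log2 scale (SE 0.27) and Cnn3 by 1.68 (SE 0.22). Crip2 was at 1.67 (SE 0.37), Nupr1 at 1.63 (SE 0.63), Tgfb2 at 1.49 (SE 0.40), Dapl1 at 1.25 (SE 0.41) and Pdlim3 at 0.93 (SE 0.33).

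The level in rod-rich wells was then set against the Müller level of the same library, for the 7 genes and for the 15 Müller markers other than Apoe. In KO libraries the median Müller marker had 30.2, 23.3 and 19.4% of its Müller level in rod-rich wells, and the median of the 7 genes was 57.2, 25.9 and 26.2%. In WT libraries the markers' median was 1.37, 4.27 and 5.64% and that of the 7 genes 1.54, 3.07 and 2.91%. Single markers spanned 13.7 to 89.9%, 5.02 to 81.4% and 8.56 to 86.0% in KO. At 3 and 6 months each of the 7 genes in KO lay inside the range of the markers. At 1 month Nupr1 (145.8%) and Dapl1 (98.4%) were above every marker, in a library whose Müller wells also held 59714 CPM of rod markers, the highest of the 6 libraries. That order depends on how wells are weighted. With each well weighted equally, none of the 7 genes in KO 1 month was above every marker (highest gene 131.3%, highest marker 162.1%), and the medians were 49.2% for the genes and 47.8% for the markers. At 3 and 6 months this weighting put the median of the genes at 40.3 and 27.2% and that of the markers at 30.8 and 18.2%, and all 7 genes were above the marker median.

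Among the genes, Nupr1 in KO had 145.8, 18.3 and 13.6% of the Müller level in rod-rich wells, and so went from the highest of the 7 at 1 month to the lowest at 3 and 6 months. Its KO Müller level was 195 CPM at 1 month and 1541 CPM at 3 months, while its KO rod-rich level was 284 and 283 CPM. Tgfb2 stood at 16.9, 66.7 and 34.8%, Pdlim3 at 57.2, 44.3 and 50.3%, and Cnn3 at 35.9, 28.4 and 26.2%. Apoe itself had 528, 1076 and 1185 CPM in WT rod-rich wells and 4066, 5506 and 2635 CPM in KO.

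**Figure D2:**
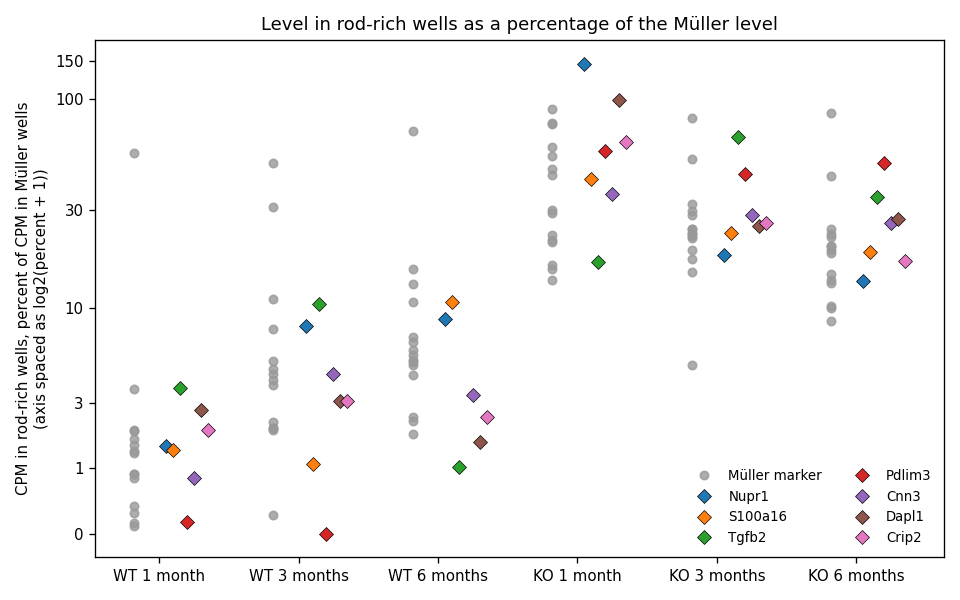
Level in rod-rich wells as a percentage of the level in Müller wells of the same library, for the 7 genes (coloured diamonds) and 15 Müller markers (grey circles), on an axis spaced as log2(percent + 1). In KO the median marker stood at 30.2, 23.3 and 19.4% and the median of the 7 genes at 57.2, 25.9 and 26.2% at 1, 3 and 6 months, and Pdlim3 has no point for WT 6 months because its Müller level was 0.

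Rod-rich wells were split by their own Apoe level, which did not bring the genotypes to a like level of Müller transcripts. Wells with under 1000 CPM of Apoe numbered 365, 86 and 146 for WT, against 81, 16 and 129 for KO. Their median summed Müller markers were 323, 1633 and 1715 CPM in WT and 6345, 7899 and 4136 CPM in KO, and their median Apoe was 79.3, 36.4 and 72.7 CPM against 299.99, 427 and 378 CPM. Müller markers were also higher in KO than in WT of the same age in each of the bins at higher Apoe. In the wells under 1000 CPM the KO library was above the WT library of its age in 18 of 21 pairs of gene and age. These wells are part of those that chose the genes, so this count and the ones at higher Apoe describe the wells and support no difference. Cnn3 had 10.9, 59.2 and 35.8 CPM in WT and 376.9, 196.0 and 138.6 CPM in KO, and Dapl1 had 15.7, 26.9 and 1.5 CPM in WT and 102.3, 233.7 and 87.2 CPM in KO. For both genes every KO library was above every WT library, although KO 3 months rests on 16 wells.

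Nupr1 in the wells with little Apoe had 3.1, 19.1 and 51.9 CPM in WT and 52.2, 388.2 and 49.6 CPM in KO. At 6 months the genotypes were level there, and S100a16 was lower in KO than in WT at that age, with 64.9 CPM in KO. The third exception was Pdlim3 at 3 months, with 0 reads in both genotypes. At 1000 to 5000 CPM of Apoe all 21 pairs were higher in KO. At 5000 to 15000 CPM 18 were, and the exceptions were Nupr1 at 6 months, Cnn3 at 3 months and Crip2 at 1 month, where WT rests on 17, 9 and 12 wells.

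**Figure D3:**
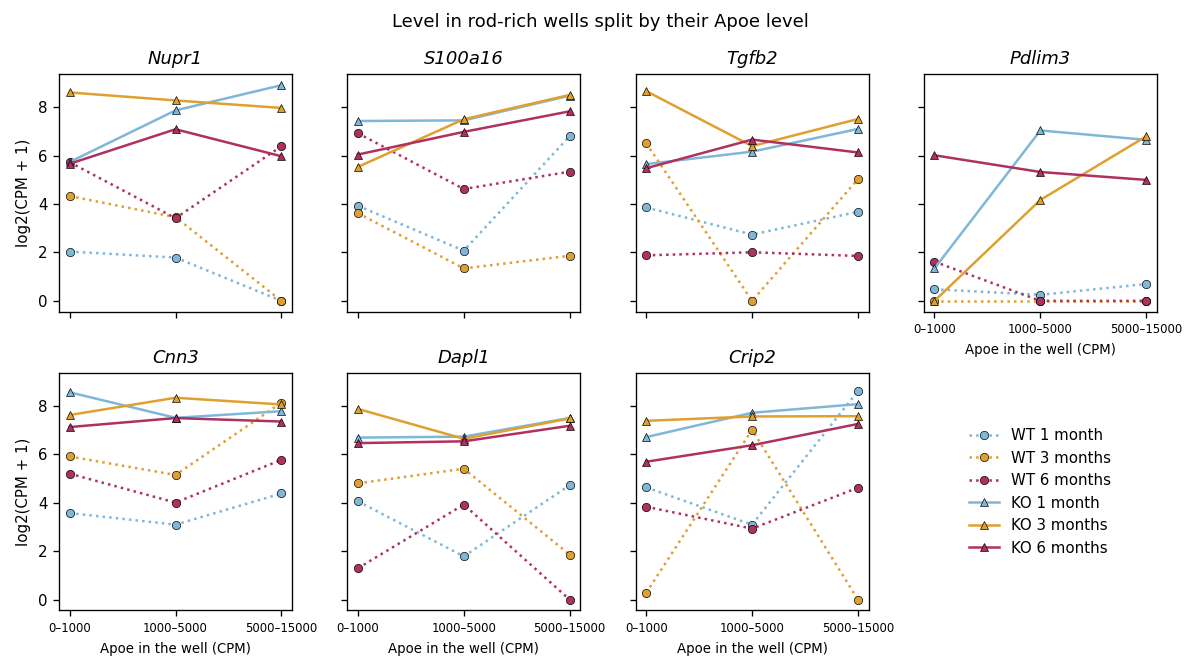
Level of each gene, as log2(CPM + 1), in rod-rich wells grouped by the Apoe level of the well in CPM, with 1 point per library and lines that join the points of a library (circles and dotted lines WT, triangles and solid lines KO). In the group under 1000 CPM Cnn3 had 10.9 to 59.2 CPM in WT against 138.6 to 376.9 CPM in KO, and Nupr1 of 6 months was level at 51.9 and 49.6 CPM.

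KO rod-rich wells that held a read of one of the genes were also the deeper ones. In 19 of 21 pairs of gene and KO library their median depth was higher than in wells without the gene, with a median ratio of 1.18. Their summed Müller markers were higher in 15 pairs (median ratio 1.07) and Apoe in 13 (1.13).

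Wells were also counted by how many of the 7 genes they held. At least 1 of the 7 was detected in 59.5, 29.5 and 35.3% of WT rod-rich wells and in 70.1, 83.1 and 81.4% of KO wells. At 5000 reads per well these shares were 9.63, 17.1 and 19.5% for WT, against 60.4, 71.3 and 63.2% for KO. At least 3 were detected in 28, 3 and 2 WT wells and in 64, 59 and 92 KO wells, which was 14.95, 22.6 and 18.6% of the KO wells. At 5000 reads they were detected in 7.91, 10.7 and 5.87% of KO wells and in at most 0.775% of WT wells. No well held all 7.

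**Figure D4:**
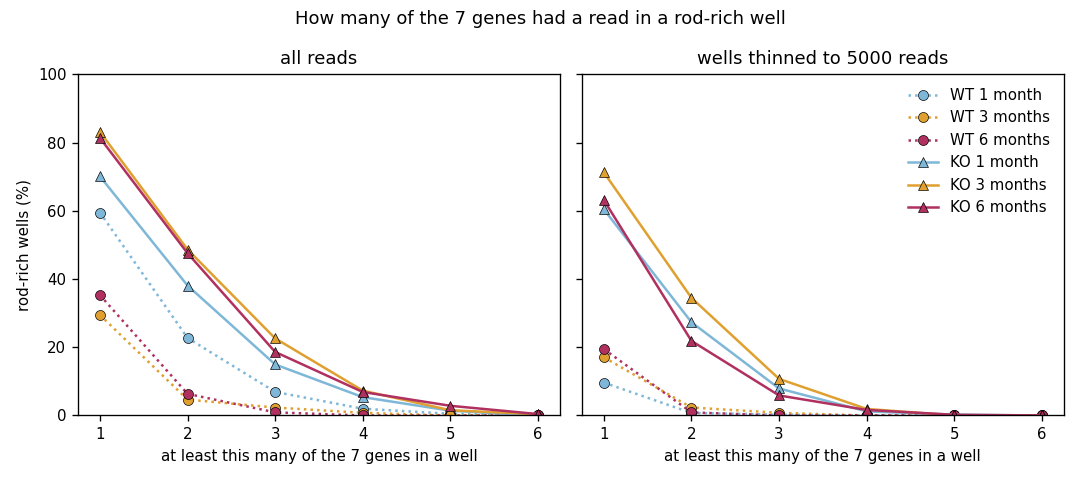
Percentage of rod-rich wells in which at least a given number of the 7 genes had a read, with all reads (left) and with wells thinned to 5000 reads (right), with 1 line per library. After thinning, wells with at least 1 of the genes made up 60.4 to 71.3% in KO, above the 9.63 to 19.5% of WT.

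Co-detection with Nupr1 was compared between KO rod-rich wells with Nupr1 (97, 65 and 100 wells) and without it (331, 196 and 394 wells). The share with another of the genes was higher in Nupr1 wells in 13 of 18 pairs of gene and library, in 12 of 18 after thinning, and in 10 of 18 where a gene needed 5 reads. Cnn3 and Dapl1 were higher in all 3 libraries, but in 2 of 3 where 5 reads were needed: Cnn3 was in 36.1, 46.2 and 35.0% of Nupr1 wells and in 27.8, 43.4 and 34.01% of the others. Dapl1 was in 15.5, 27.7 and 22% of Nupr1 wells and in 13.6, 17.3 and 21.1% of the others. The exact intervals of the shares with and without Nupr1 overlapped for both genes in all 3 libraries. Crip2 was in 26.8, 20 and 31% of Nupr1 wells and in 16.6, 25.5 and 21.1% of the others, and so was lower with Nupr1 at 3 months.

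The highest ratios between the shares were those of Tgfb2 at 1 month and Pdlim3 at 3 months. Tgfb2 was in 23.7% of wells with Nupr1 (exact 95% interval 15.7 to 33.4) and in 11.5% of wells without Nupr1 (8.3 to 15.4). Of the 18 pairs this was the 1 whose intervals did not overlap. Pdlim3 was in 13.8% (6.5 to 24.7) and 3.6% (1.4 to 7.2) at 3 months, but at 1 month it was in fewer Nupr1 wells (2.1 against 7.6%). S100a16 had 29.9, 24.6 and 25% with Nupr1 and 22.4, 26.5 and 26.9% without, and so changed order between 1 month and the later ages. Edn2, a secreted peptide of stressed photoreceptors, was in 18.6, 15.4 and 22% of Nupr1 wells and in 18.7, 9.2 and 11.4% of the others. Over all 21 pairs of the 7 genes, 18, 13 and 16 pairs occurred together more often than the product of their shares, with median ratios of 1.25, 1.12 and 1.098. After thinning 14, 12 and 13 pairs did, and where 5 reads were needed 14, 13 and 14.

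Bipolar wells gave a genotype comparison in a class that did not choose the genes, although a higher Nupr1 level in KO bipolar cells was known from earlier work on these data. Nupr1 had 0.956, 0.520 and 53.4 CPM in WT bipolar wells and 162, 166 and 171 CPM in KO. Every KO library was above every WT library, and the WT libraries of 1 and 3 months were near 0. The fitted log2 difference was 5.68 (SE 1.13, edgeR adjusted p 0.00438), which repeats the known difference and gives no independent support to it. S100a16 had 7.23, 2.60 and 26.5 CPM in WT and 226, 335 and 123 CPM in KO, again without overlap. Its log2 difference was 4.46 (SE 0.83, edgeR adjusted p 0.00173). edgeR called 0.152% of 13149 genes in bipolar wells, 0.137% as higher in KO, and 2 of the 7 genes were among them, S100a16 and the already known Nupr1.

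With 1 residual degree of freedom left, both calls were lost without the 3 month libraries. Without them Nupr1 had a log2 difference of 4.30 and S100a16 of 3.41, each with an edgeR adjusted p of 1, and no gene in bipolar wells was called, with 339 at an unadjusted p under 0.05. The Nupr1 call was also lost without 1 month (4.19, edgeR adjusted p 0.127), where the library that goes against its sex label is left out, and with bipolar markers set at 10000 CPM or more (edgeR adjusted p 0.0513). The Müller markers moved with these calls. Their summed level had a median of 327, 1324 and 1269 CPM in WT bipolar wells and 7463, 11090 and 5252 CPM in KO, and all 16 were higher in every KO library than in every WT library. Rod markers in the same bipolar wells had a median of 6537, 35332 and 29291 CPM in WT and 56470, 41706 and 30730 CPM in KO. Of the 20 genes called, 7 were Müller markers, with Rlbp1, a retinoid carrier, at 3.94 and Vim, an intermediate filament protein, at 5.57 on the log2 scale. The part of Müller and rod transcripts in the Nupr1 and S100a16 values was not tested.

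Dapl1 and Pdlim3 also had every KO library above every WT library in bipolar wells, as had 12.2% of all genes tested. Pdlim3 passed the filter on low counts only through its KO reads, so a count over the 7 genes is not read here. Dapl1 had 37.0, 0 and 27.8 CPM in WT and 215, 138 and 86.5 CPM in KO, with a fitted log2 difference of 3.24 (SE 1.00, edgeR adjusted p 0.44). Pdlim3 had 0.223, 0 and 0 CPM in WT and 7.30, 6.57 and 23.4 CPM in KO, with a fit at 6.87 (SE 3.41, edgeR adjusted p 1). Cnn3 (153, 64.998 and 61.5 CPM in WT and 181, 287 and 111 CPM in KO) and Crip2 (49.5, 0.520 and 3.59 CPM in WT and 33.3, 136 and 72.3 CPM in KO) overlapped between genotypes. DESeq2 called 2.54% of genes, 2.2% as higher, among them Dapl1 (adjusted p 0.0224) and Crip2 (0.0270) beside Nupr1 and S100a16.

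Tgfb2, Cnn3 and Crip2 were the genes that overlapped between genotypes in bipolar wells. Tgfb2 had 467, 336 and 349.8 CPM in WT and 726, 319 and 212 CPM in KO. Its fitted log2 difference was -0.21 (SE 0.43, edgeR adjusted p 1). These levels were 134.3, 51.6 and 129.8% of the Müller level in WT and 139.1, 142.3 and 93.2% in KO. Bipolar wells of both genotypes thus held this ligand at a level near that of Müller wells, while WT rod-rich wells held 1.0 to 10.4% of it.

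In Müller wells none of the 7 genes passed the test of genotype. edgeR called 0.0336% of 14884 genes, which were Ctss, C4b, Pde6h, Serpina3n and Trpm1, of which Pde6h and Trpm1 are markers of cones and bipolar cells, with 237 genes at an unadjusted p under 0.05 and with 1 residual degree of freedom. The fitted log2 differences were 0.17 for Nupr1 (SE 0.77), -0.81 for S100a16 (SE 0.76), 0.03 for Tgfb2 (SE 0.81), 2.57 for Pdlim3 (SE 1.76), -0.98 for Cnn3 (SE 0.76), -1.02 for Dapl1 (SE 0.89) and -1.25 for Crip2 (SE 0.84). Each had an edgeR adjusted p of 1. DESeq2 called 3.26% of genes, 2.47% as higher, and again none of the 7. None of the 7 had every KO library above every WT library, against 15.9% of all genes, counted over the 3 KO and 2 WT libraries in the fit. With standard errors of 0.76 to 1.76 the fit gives only wide limits for these genes.

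By ratio of CPM, Cnn3 and Crip2 were lower in KO Müller wells at each age. Cnn3 had log2 differences of -1.14, -0.58 and -0.55 (mean -0.76 ± 0.33, SD over 3 ages) and Crip2 of -2.21, -0.27 and -0.02 (mean -0.83 ± 1.1997). Nupr1 was on average higher, by 1.18 ± 1.55, of which most came from 3 months. The 16 Müller markers had a median of -0.41 there, and 6 of them were lower in KO at each age. Their summed level in Müller wells had a median of 92908, 81914 and 64117 CPM in WT and 44099, 56227 and 55016 CPM in KO. Rod markers in these wells had 6760, 18581 and 54247 CPM in WT and 59714, 32297 and 34020 CPM in KO. The part of this in the Cnn3 and Crip2 differences was not tested.

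Mean levels of each gene were compared over Müller, rod-rich, cone and bipolar wells, leaving out ganglion cell wells and wells of no class. In KO, Nupr1 stood at 9.24 ± 1.51 log2(CPM + 1) in Müller wells (SD, n = 3 libraries), 7.65 ± 0.87 in rod-rich, 7.46 ± 0.99 in cone and 7.39 ± 0.04 in bipolar wells, and only the Müller level was apart from its neighbour, the rod-rich level, by more than either SD. In WT it stood at 8.26 ± 0.93 in Müller wells (n = 2), 3.84 ± 1.74 in rod-rich, 3.24 ± 1.602 in cone and 2.45 ± 2.88 in bipolar wells. There too the Müller level was above that of rod-rich wells by more than either SD, and the remaining neighbours were not apart. Cone-class wells followed the rod-rich wells, with 1.85, 10.7 and 24.5 CPM of Nupr1 in WT and 315, 208 and 82.3 CPM in KO. In wells of no class the Nupr1 mean was 8.87 ± 0.23 log2(CPM + 1) in WT (n = 3), above that of Müller wells. In KO it was 9.04 ± 0.86 (n = 2).

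S100a16, Cnn3, Dapl1 and Crip2 also had their highest mean level in Müller wells in both genotypes. Among the classes compared, the step in WT from Müller wells to the next was 9.90 ± 0.28 against 4.61 ± 1.67 in rod-rich wells for S100a16. For Cnn3 it was 10.13 ± 0.38 against 6.43 ± 0.73 in bipolar wells. In KO this step was 9.54 ± 0.54 against 7.72 ± 0.72 in bipolar wells for S100a16, and 9.52 ± 0.40 against 7.78 ± 0.40 in rod-rich wells for Cnn3. The order below Müller wells was within the spread in KO. Tgfb2 had 8.57 ± 0.26 in WT and 8.52 ± 0.90 in KO bipolar wells, next to 8.26 ± 0.26 (n = 2) and 8.23 ± 0.70 in Müller wells. In KO these differed by less than either SD. The WT Müller mean leaves out 3 months, where 9 Müller wells had 651 CPM of Tgfb2 against 336 CPM in bipolar wells, so the classes are not ranked for this gene.

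The genes whose pattern was most like the mean of the 7 were sought over 17 sums of library and class (rod-rich, bipolar and Müller), as a description. The first were Aldh1l1 (Pearson r 0.957), Scn7a (0.955), Clu (0.950), Car14 (0.942), Tnfaip8 (0.942), Pfn2, St8sia2, Smox, Pdpn and Pax6os1 (0.937). Clu and Car14 belong to the Müller markers, whose median r was 0.897. Nupr1 alone was most like Gstt1 (0.937), Ildr2 (0.930), Fxyd1 (0.924), Rassf4 (0.918) and Rlbp1 (0.917). Of the 7 genes, S100a16 was nearest to it (0.930) and Tgfb2 farthest (0.207). The sums share libraries and depth, so these values carry no test.

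Genes of the same pathways and families were counted in the same fits. The stress list held 20 genes around ATF4, with 18 tested in rod-rich wells. There edgeR called 0 of them (all genes: 0.0%), while DESeq2 called 2, both higher (all genes: 4.46% higher). Their median log2 difference was 0.87 against 0.28 for all genes, 12 were fitted higher, and 3 had an unadjusted p under 0.05, all higher. Atf4 itself was fitted at -0.54 (edgeR adjusted p 0.652), its partner Ddit3, which encodes CHOP, at -0.24 (0.951) and the chaperone Hspa5 at -0.60 (0.594). In bipolar and Müller wells edgeR and DESeq2 each called 0 of 16 and 0 of 17 stress genes, and 0 in edgeR had an unadjusted p under 0.05. Of all genes, edgeR called 0.152 and 0.0336% in these classes and DESeq2 2.54 and 3.26%.

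Of 23 TGF-β pathway genes, 16 were tested in rod-rich wells. There edgeR called 0 (0.0% of all genes) and DESeq2 1 (5.48% of all genes). In edgeR 15 were fitted higher with 1 at an unadjusted p under 0.05, and the median log2 difference was 1.86 against 0.28 for all genes. The receptor Tgfbr1 was fitted at 0.42 (edgeR adjusted p 0.938). In Müller wells against rod-rich wells, Id3, a target of this family of ligands, was higher by 3.38 (SE 0.65, edgeR adjusted p 0.0382). It was the 1 gene of 18 called by edgeR (all genes: 1.31%), while DESeq2 called 2 (all genes: 15.2%).

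Of 23 relatives of the 7 genes, edgeR called 1: the calcium-binding S100a1 was higher in KO bipolar wells by 4.89 (SE 0.96, edgeR adjusted p 0.00413), among 14 tested. In rod-rich wells S100a1 was fitted at 1.96 (edgeR adjusted p 0.129) and Nupr1l, the relative of Nupr1, at -0.47 (0.909), and edgeR called 0 of 16, with 8 at an unadjusted p under 0.05. DESeq2 called 6 of 16 relatives in rod-rich wells (all genes: 5.48%), 2 of 14 in bipolar wells (2.54%) and 7 of 18 in Müller against rod-rich wells (15.2%), all higher in KO or in Müller wells. Nothing is read from these shares, since the relatives were listed with the results known.

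Of 16 genes of reactive gliosis, edgeR called 2 in Müller wells (all genes: 0.0336%) and DESeq2 5 (all genes: 3.26%). The complement gene C4b was higher in KO by 8.36 (SE 1.38, edgeR adjusted p 9.61e-06) and the protease inhibitor Serpina3n by 8.57 (SE 1.69, edgeR adjusted p 0.0015). In rod-rich wells edgeR called 0 of 16 (all genes: 0.0%) and DESeq2 11, all higher in KO (all genes: 4.46% higher). In edgeR 15 were fitted higher and 13 of these had an unadjusted p under 0.05, with a median log2 difference of 6.09 against 0.28 for all genes. In bipolar wells edgeR called 0 of 12 (5 had an unadjusted p under 0.05) while 5 were called by DESeq2 (all genes: 0.152% in edgeR and 2.54% in DESeq2). These lists were drawn up with earlier results in view and give no independent support to a direction.

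The ATAC peak lists were read at the 7 genes, using the gene annotation the lists carry. The WT list at 7 months held 56797 peaks and the KO list at 6 months 91130, with no height or depth, so a longer list cannot be told apart from a deeper library, and age goes together with genotype. The genes had 38 peaks in WT and 82 in KO. Of the KO peaks 45 overlapped no WT peak, which is 54.9% against 42.3% of all KO peaks, and of the WT peaks 1 overlapped no KO peak (2.63 against 5.87%). Tgfb2 alone gave 19 of these 45 KO peaks, so the pooled share leans on that gene. Dapl1 gave 10, Cnn3 8, Pdlim3 6, S100a16 and Crip2 1 each, and Nupr1 0. Where an overlap had to cover 0.5 of both peaks, 56 KO peaks were unshared (68.3 against 53.8% of all) and so were 12 WT peaks (31.6 against 25.9%). Tgfb2 went from 7 to 25 peaks, Dapl1 from 6 to 16, Cnn3 from 5 to 13 and Pdlim3 from 12 to 18. S100a16 went from 2 to 3 and Crip2 from 4 to 5, while Nupr1 had 2 in each. More KO than WT peaks were thus listed at 6 of 7 genes, against 57.8% of all genes with peaks.

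Each of the 7 genes had a promoter peak in both lists, so the promoters were listed as open in WT too. The KO peak was wider at all 7 genes, against 78.0% of 12762 genes with a promoter peak in both, where the median width ratio was 1.07. The Nupr1 promoter peak was 313 bases wide in WT (chr7:126625511-126625823) and 665 in KO (chr7:126625317-126625981), a ratio of 2.12. Only the KO peak included the start site at 126625470, and the WT and KO peaks covered 210 and 250 of the 250 bases of the Nupr1 window printed above. The Dapl1 promoter peak went from 358 to 643 bases (ratio 1.80), that of Cnn3 from 2185 to 3384 (1.55), that of Pdlim3 from 1615 to 2229 (1.38) and that of Crip2 from 3134 to 3220 (1.03). The Tgfb2 peak went from 1173 to 5177 bases (ratio 4.41), where the KO peak spanned both the WT promoter peak and a further WT peak inside the gene.

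S100a16 was the 1 gene with a promoter peak that had no WT overlap of any length, which is 1 of 8 KO promoter peaks (12.5%) and near the 10.3% of all 13887. Where 0.5 of both peaks had to overlap, 3 of the 8 were unshared (37.5%), against 20.6% of all. The unshared S100a16 peak lay at its inner start site (chr3:90540995-90541435) and covered 151 of the 250 bases of window 2, where the WT list covered 0. Window 1 was covered over 140 bases in WT and 170 in KO, by a peak that was 391 bases wide in WT and 510 in KO (ratio 1.30).

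**Figure D5:**
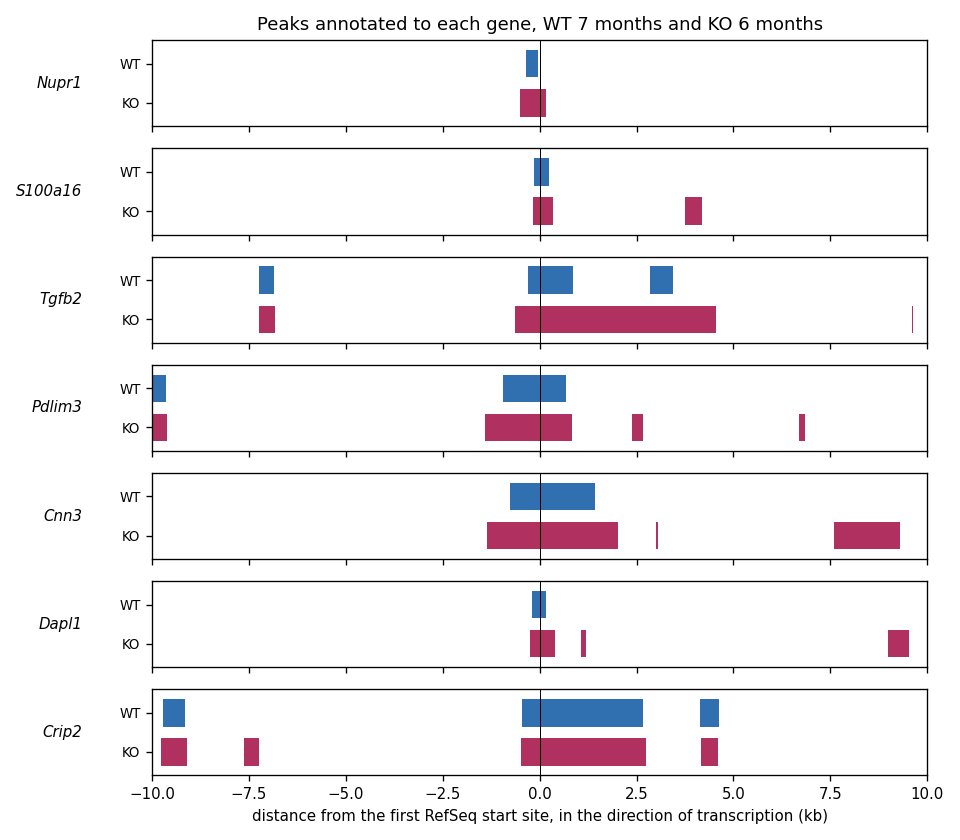
Peaks annotated to each gene within 10 kb of its first RefSeq start site, by distance in kb in the direction of transcription, with WT 7 months in blue above KO 6 months in red. Each bar is 1 listed peak drawn to scale, and the bar at the start site is wider in KO at all 7 genes, most at Tgfb2 (5177 against 1173 bases).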

How the data were processed

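Retinal cells or nuclei were dispensed on an ICELL8 chip, wells with a single cell or nucleus were picked by imaging, and libraries of transcript 3′ ends carried well barcodes, per the labels' protocols. The deposited RNA tables hold raw counts of reads per gene and well, and the submitters' processing notes name CASAVA, TopHat2, HTSeq and Seurat and the builds mm10 and GRCm38. Use of molecular identifiers is not given in the sources used here, so intervals and limits cover counting error only. The ATAC lists hold, per the file headers, peak positions, annotated genes, peak type and distance to the gene in bases (a deposited value of another kind, not used beyond the annotation); the submitters' processing notes name Cell Ranger ATAC 1.1.0, and positions are printed from 1.

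Of 3747 wells, 1 was dropped for having under 300 detected genes or over 30% of its reads from mitochondrial genes. Of 43628 gene IDs, 42461 matched a symbol. Classes were set in order: Müller (Apoe at least 15000 CPM), then the class with the highest marker sum of at least 5000 CPM and 3 detected markers, then rod-rich (rod markers at least 0.5 of the median over all wells). No doublet caller was run. The members and gene lists were chosen with earlier results of these data known. The text names the 7 genes, list genes called at a false discovery rate of 0.05 or among the 3 most abundant of their list, and the 10 genes most like the mean of the 7 genes and 5 most like Nupr1. Edn2, the markers Rlbp1 and Vim, and the genes called in Müller wells that are in no list were named after their values were seen.

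Reads were summed per class and library. Fits used edgeR 4.0.16 (quasi-likelihood, TMM, filterByExpr, age and genotype as terms, or library and class) in R 4.3.3, with Benjamini-Hochberg adjustment over all genes tested, for sums of at least 10 wells, and the scripts were checked on simulated data. Alternatives were DESeq2 1.42.0, no filter, each age left out, other class cuts, Leiden clusters (scanpy 1.11.5, igraph 0.11.9) and wells thinned to 5000 reads; leaving out the library labelled WT 1 month was added after the data were seen. Ratios used log2(CPM + 1). Shares have exact (Clopper-Pearson) 95% intervals, and a count of 0 allows 3 reads. No p below 0.25 can come from permuting genotypes within 3 ages, so no such test is given. Nothing says that libraries came from separate animals of 1 group. Genotype p-values therefore measure how the genotype difference varied between ages. Those of Müller against rod-rich wells measure how the class difference varied between libraries.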

Additional observations from a re-analysis of the deposited data

Results flagged for a closer look

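Cnn3 and Crip2 had opposite directions in a pair of cell classes. Both were higher in KO rod-rich wells at each of the 3 ages and lower in KO Müller wells at each age, with a mean log2 KO minus WT difference in Müller wells of -0.76 for Cnn3 and -0.83 for Crip2. The Müller value of 3 months rests on 9 WT wells, and the Crip2 value at 6 months was -0.02. Of the 16 Müller markers 6 had the same pattern: Apoe, Aqp4, Dkk3, Prdx6, Rlbp1 and Slc1a3. The summed Müller markers were also lower in KO than in WT Müller wells at each age, and their part in these values was not tested. The rod-rich direction is what chose Cnn3 and Crip2, and the difference between the classes was not tested.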

How the results depend on the processing

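No paired analysis was possible because each group holds 1 library and the labels give no replicate numbers, beyond the terms for age or for library that the fits already hold. The number of genes called changed most with the tool. In rod-rich wells edgeR called 0 genes, DESeq2 775, no filter 98, leaving out 1 age 0 to 71, the rod cut at 0.25 and 1 times the median 11 and 1, other classes at 10000 CPM 16, clusters 13, thinned wells 26 and wells with Apoe under 1000 CPM 10. In bipolar wells edgeR called 20 genes, DESeq2 334, leaving out 1 age 0 to 31 and other classes at 10000 CPM 8. For genotype in Müller wells edgeR called 5, DESeq2 485, without 3 months 10, an Apoe cut at 10000 CPM 10 and thinned wells 3. For Müller against rod-rich wells edgeR called 201 (97 higher), DESeq2 2328, leaving out 1 age 0 to 119, an Apoe cut at 10000 CPM 132, the rod cut at 0.25 times the median 134, clusters 312 and thinned wells 672. There DESeq2 moved the median log2 difference of all genes from -0.54 to -0.29. Where leaving out an age gave 0 calls, 505 genes (rod-rich, without 1 month), 339 (bipolar, without 3 months) and 1432 (Müller against rod-rich, without 6 months) had an unadjusted p under 0.05 in edgeR. Unshared KO peaks at the 7 genes numbered 45, and 1 among promoter peaks, against 56 and 3 by reciprocal overlap (all KO promoter peaks: 10.3 and 20.6%). The causes of these differences were not tested. Of the single-gene results 6 turned sign, all uncalled before and after. Tgfb2 in Müller wells went from 0.03 to -0.016 (no filter), -0.63 (Apoe cut at 10000 CPM), -0.024 (clusters) and -0.39 (thinned wells), Tgfb2 in bipolar wells from -0.21 to -0.45 and 0.069 over the ages left out, and Nupr1 in Müller wells from 0.17 to -0.16 (Apoe cut at 20000 CPM). A further 4 were lost and 2 gained a call, all in bipolar wells, 25 moved and 341 did not, where comparisons with rod-rich wells, which chose the genes, have sizes and no calls. The Müller fits without 1 and without 6 months were not run, since no residual degrees of freedom remained. Depth limits the WT libraries of 3 and 6 months, with 9 and 12 Müller wells.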

Other observations

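Wells that fell in no class held Nupr1 in both genotypes. The level was 423, 562 and 431 CPM in WT at 1, 3 and 6 months, over 17, 14 and 19 wells, and 641, 804 and 345 CPM in KO. In WT 6, 3 and 4 of these wells had a Nupr1 read, and the top well held 91.8, 99.2 and 42.6% of the reads.

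Tgfb2 in cone-class wells had 51.2, 90.3 and 0 CPM in WT and 78.2, 84.9 and 36.6 CPM in KO, so the genotypes overlapped there, unlike in rod-rich wells. Pdlim3 in the same wells had 0.325, 0 and 0.322 CPM in WT and 66.4, 35.5 and 48.4 CPM in KO.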
